A study of Mus musculus with 5 samples.

Results

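The cells described here are 177 cells, 2 of them T cell-like, that were sorted as splenic plasma cells and held transcripts of cell division. They stood among 1222 cells in the B220+2NBDG- spleen library and 5476 cells in the series. They were chosen by their own counts: a cell was taken as dividing when it held at least 5 unique molecular identifiers (UMIs, each standing for 1 captured transcript) summed over Mki67, Top2a, Birc5, Cdk1, Ccnb1, Ccnb2, Rrm2, Ube2c, Cdc20 and Aurka. They are set against the 720 cells of the same library with 0 such UMIs, called 0-UMI cells below. The remaining 325 cells of the library held 1 to 4. All groups came from untreated male C57Bl6/N mice of 8 to 12 weeks. The sort took CD138-high cells (CD138 is the product of Sdc1) that were negative for Ly6g and CD11c, was run in 2 rounds, and pooled 3 animals per library. The B220+2NBDG- library held cells positive for B220, a form of the CD45 protein (gene Ptprc), that had not taken up 2NBDG, a fluorescent glucose analogue. The spleen gave 3 more libraries, one of B220-2NBDG- cells, one of B220+2NBDG+ cells and one of B220-2NBDG+ cells, and the bone marrow gave a last one, of B220-2NBDG+ cells. Differences within the library therefore carry no replicate error and no p-value, and their 95% intervals cover counting error only.

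A plasmablast is an antibody-secreting cell that still divides, an intermediate between an activated B cell and the non-dividing plasma cell. Division runs through a phase in which DNA is copied, driven by genes under E2F transcription factors, and through mitosis, in which spindle, kinetochore and cyclin B genes are used; many genes of that second group are controlled by the DREAM and MuvB complexes together with NF-Y, through the cell cycle homology region (CHR) and CCAAT elements of their promoters. As the cell matures under Prdm1, Xbp1 and Irf4, it gives up the cycle and turns most of its transcription to immunoglobulin.

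The promoters of the division genes are shown first because these genes were high together in the same cells. RefSeq windows from 250 bases before to 50 bases after the transcription start (GRCm38.p6) were searched on both strands for CCAAT, for the CHR core written as TTTGAA or TTCGAA, and for E2F sites written as TTTGGCG or TTTCCCG. Windows were found for 85 of 102 mitotic genes (the 10 rule genes, each with a window, and the lists of mitotic regulators, kinetochore and spindle genes) and for 42 of 53 DNA replication genes. In the 85 mitotic genes, 64.7% had a CHR core, against 21.7% of all 27025 genes with a window. CCAAT stood in 72.9% of them, against 41.1%, and both elements in 54.1%, against 9.65%. Of the 42 DNA replication genes, 59.5% had an E2F site, against 5.55% of all genes. CCAAT stood in 64.3% of the DNA replication genes as well, and a CHR core in 21.4%. An E2F site stood in 14.1% of the mitotic genes. The 24 nucleotide synthesis genes with a window had CCAAT in 45.8%, a CHR core in 4.17% and an E2F site in 4.17%. Of the rule genes, 9 had CCAAT and 7 had a CHR core. A match describes these letters only and is not a measured binding site. A rule gene, a mitotic kinase and 2 genes of DNA copying are printed 5′ to 3′ on the gene's strand, with matches to the searched motifs in capitals (a match on the other strand reads as its reverse complement, for example ATTGG).
Ccnb2 (chr9:70421505-70421804, minus strand): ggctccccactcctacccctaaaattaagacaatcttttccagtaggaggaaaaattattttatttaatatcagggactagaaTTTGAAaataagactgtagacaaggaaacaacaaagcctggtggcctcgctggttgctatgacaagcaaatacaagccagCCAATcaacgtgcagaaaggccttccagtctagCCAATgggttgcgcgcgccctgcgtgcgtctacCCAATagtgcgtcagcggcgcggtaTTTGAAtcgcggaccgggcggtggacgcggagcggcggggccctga
Plk1 (chr7:122159185-122159484, plus strand): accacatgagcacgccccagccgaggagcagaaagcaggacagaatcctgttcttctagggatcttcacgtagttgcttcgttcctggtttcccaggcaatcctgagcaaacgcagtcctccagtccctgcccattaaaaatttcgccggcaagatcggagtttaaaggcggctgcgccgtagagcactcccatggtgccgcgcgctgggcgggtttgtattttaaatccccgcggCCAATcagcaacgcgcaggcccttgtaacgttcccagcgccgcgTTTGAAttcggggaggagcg
Mcm6 (chr1:128359656-128359955, minus strand): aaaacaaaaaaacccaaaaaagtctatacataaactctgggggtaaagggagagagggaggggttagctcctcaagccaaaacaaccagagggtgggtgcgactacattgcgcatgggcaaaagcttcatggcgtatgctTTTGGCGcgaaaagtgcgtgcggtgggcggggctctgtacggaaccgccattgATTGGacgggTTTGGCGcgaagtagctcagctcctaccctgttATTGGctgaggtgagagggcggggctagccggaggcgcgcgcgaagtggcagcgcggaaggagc
Pclaf (chr9:65890073-65890372, plus strand): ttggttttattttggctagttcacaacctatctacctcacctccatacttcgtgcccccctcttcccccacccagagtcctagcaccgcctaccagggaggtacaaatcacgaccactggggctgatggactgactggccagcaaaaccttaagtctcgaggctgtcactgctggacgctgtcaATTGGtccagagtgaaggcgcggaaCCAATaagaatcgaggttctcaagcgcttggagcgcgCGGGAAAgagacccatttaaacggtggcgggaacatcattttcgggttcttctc
Ccnb2 had CCAAT and CHR letters and no E2F letters, Mcm6 had E2F and CCAAT letters and no CHR letters, and Plk1 had a CCAAT and a CHR match in its last 100 bases.

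The rule genes themselves are a description of how the cells were chosen. The 177 cells held a median of 34 rule-gene UMIs and at most 164. Rrm2, a subunit of ribonucleotide reductase, gave 1750 of these UMIs (22.8%) and was seen in 162 cells. Ube2c, the ubiquitin-conjugating enzyme of the anaphase-promoting complex, gave 1206 UMIs in 133 cells. Birc5 (survivin) was seen in 158 cells, the complex's activator Cdc20 in 154, the mitotic cyclins Ccnb1 and Ccnb2 in 140 and 135, Cdk1 in 132, Mki67 in 130, Top2a in 128 and the kinase Aurka in 103. No single rule gene marked every cell. Just inside the threshold lay 9 cells with 5 or 6 rule-gene UMIs, and just outside it 33 cells with 3 or 4; 128 of the 177 cells held 20 or more. The spindle list, which shares no gene with the rule, summed to 1472 UMIs per 1000000 non-immunoglobulin UMIs (CPM) in the cells with 5 or 6, against 583 CPM in those with 3 or 4, 356 CPM in all cells with 1 to 4 and 315 CPM in 0-UMI cells. It reached 5804 CPM in cells with 20 or more.

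**Figure D1:**
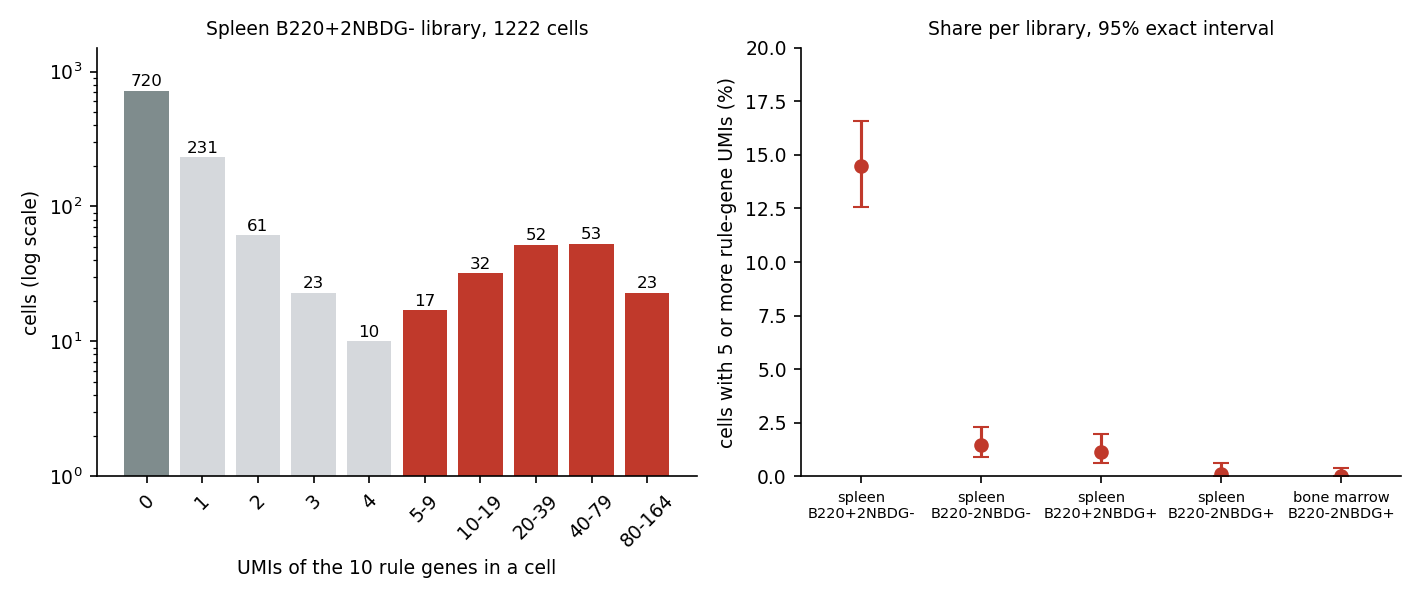
Cells of the B220+2NBDG- spleen library by their summed UMIs of the 10 rule genes, and the share of dividing cells in each of the 5 libraries with exact 95% intervals. The B220+2NBDG- library reached 14.5%, and no other library passed 1.47%.

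Of the cells in the B220+2NBDG- library, 14.5% were dividing (177 of 1222, Clopper-Pearson 95% interval 12.6 to 16.6%). The same rule took 19 of 1296 cells (1.47%, 0.885 to 2.28%) in the B220-2NBDG- spleen library and 13 of 1126 (1.15%, 0.616 to 1.97%) in the B220+2NBDG+ spleen library. It took 1 of 894 cells (0.112%) in the B220-2NBDG+ spleen library and 0 of 938 in bone marrow, which by a limit of 3 counts allows a share of up to 0.320%. The counting intervals of the B220+2NBDG- library overlapped no other. With each cell thinned to 2000 non-immunoglobulin UMIs, the share was 12.1% (133 of 1102 cells, 120 shallower cells left out) in the B220+2NBDG- library, against 1.09% (12 of 1104) in B220-2NBDG- and 0.872% (9 of 1032) in B220+2NBDG+. 1 of the 177 barcodes also occurred in the B220+2NBDG+ library.

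The dividing cells had a median of 13901 UMIs, against 8845.5 in 0-UMI cells, and a median of 10057 non-immunoglobulin UMIs, against 3805. The total was not higher in each of them: the 49 cells with 5 to 19 rule-gene UMIs had a median of 6877 UMIs, with a median of 4761 non-immunoglobulin UMIs, and the 128 cells with 20 or more had 16239.5 and 11869.5. A median of 2678 non-immunoglobulin genes was seen per dividing cell, against 1374. Mitochondrial transcripts had a median share of 1.78%, against 1.40%. A cell with more UMIs passes a UMI threshold more easily, so 0-UMI cells matched to the dividing cells by depth were used as an alternative. The match was partial, with a median of 6276 non-immunoglobulin UMIs in the matched cells.

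Immunoglobulin took a much smaller share of the transcripts of dividing cells. It made up 25.2% of their summed UMIs, against 53.8% in 0-UMI cells; the median per cell was 24.2% (10th to 90th percentile 10.8 to 43.5%), against 52.8% (32.7 to 68.2%). The difference was also one of number: a dividing cell held a median of 2864 immunoglobulin UMIs, against 4360.5, although its median total was higher. 0-UMI cells matched on total UMIs had 57.2%. Igkc, the kappa constant gene, took 15.5% of UMIs in dividing cells, against 34.5%, and Ighm, the IgM heavy chain constant gene, 4.40%, against 10.98%. The share was lower within each isotype: 25.6% in dividing IgM cells, against 55.9% in IgM 0-UMI cells, 26.0% against 53.0% in IgG cells, and 19.8% against 41.8% in IgA cells. The number was lower in IgM and IgG cells only. In the 8 dividing IgA cells the median was 2771.5 immunoglobulin UMIs, against 2653.5. Cells with 3 or 4 rule-gene UMIs lay between, at 39.9%.

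**Figure D2:**
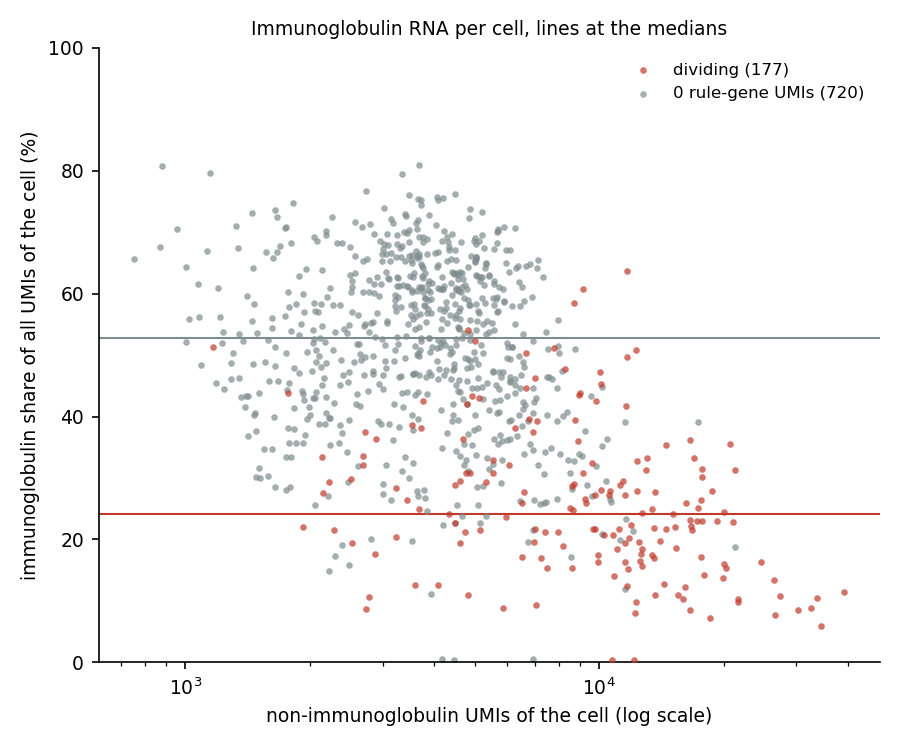
Immunoglobulin share of all UMIs (vertical axis, %) against the non-immunoglobulin UMIs (horizontal log axis) of each of the 177 dividing (red) and 720 0-UMI cells (grey) of the B220+2NBDG- spleen library, with lines at the medians. The median lies at 24.2% in dividing cells and at 52.8% in 0-UMI cells, and dividing cells reach further to the right.

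Because immunoglobulin differed so much, expression was scaled to non-immunoglobulin UMIs, 1954380 in dividing cells and 2975895 in 0-UMI cells. Genes counted as higher or lower had a CPM ratio of at least 2 with at least 25 CPM and 50 UMIs in the class that was higher. By this rule 619 of 4344 genes were higher in dividing cells (14.2%) and 216 were lower (4.97%). A gene near 0 in one class passes this minimum only through the other, so list counts below are descriptions. Of the 619 genes, 158 stood in the lists of division genes and 461 did not. The median log2 ratio of the 4344 genes was 0.26. The split depended on scaling: 74.1% of calls were higher as given, 98.6% when scaled to all UMIs (1776 higher, 25 lower), 57.8% with Jchain also left out of the total (486 and 355) and 59.1% with TMM factors (453 and 313). Scaling to all UMIs moved the median of all genes by 0.70 on the log2 scale, leaving out Jchain by -0.17 and TMM by -0.16. Against 0-UMI cells matched by depth as far as the library allowed, 658 genes were higher and 124 lower. These cells stayed shallower, with a median of 6276 non-immunoglobulin UMIs, against 10057 in dividing cells. In the 49 cells with 5 to 19 rule-gene UMIs alone, 105 genes were higher and 296 lower.

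Genes of DNA copying were higher throughout. Of 53 listed genes 42 passed the minimum, and each of the 42 was higher; the median log2 ratio of the 45 members with a mean of at least 10 CPM was 3.04, against 0.21 over all 6147 such genes. Pclaf, the PCNA-associated factor, had 971 CPM (1898 UMIs) in dividing cells, against 8.40 CPM (25 UMIs) in 0-UMI cells, a 116-fold ratio (95% interval 78.1 to 179). Pcna, the sliding clamp of the polymerases, was 8.20-fold higher (6.40 to 10.6). The subunits of the replicative helicase were unequal: Mcm5 was 44.8-fold higher (21.4 to 113), Mcm3 18.2-fold (11.1 to 31.8), Mcm7 16.6-fold (10.8 to 26.6), Mcm2 7.02-fold (5.14 to 9.77) and Mcm6 3.32-fold (2.76 to 3.99). Mcm6 had 174 UMIs in 0-UMI cells and Mcm5 had 7, so the smaller ratio went with a higher level outside division. Cdc45, which travels with that helicase, was 27.8-fold higher (13.1 to 70.6), and the origin licensing factors Cdc6 and Cdt1 were 23.8-fold (9.76 to 75.2) and 3.17-fold (2.22 to 4.60) higher. In nucleotide synthesis 12 of the 20 genes past the minimum (26 listed) were higher. Tyms, which makes thymidylate, had 166 CPM, against 10.4 (15.9-fold, 10.99 to 23.8), and Rrm1, the partner of the rule gene Rrm2, was 10.7-fold higher (7.33 to 16.1). The one-carbon enzymes Mthfd2 and Shmt2 did not pass, with CPM ratios of 1.02 and 1.46. Shmt1 (31 UMIs, against 5) and Mthfd1 (36 UMIs, against 18), one-carbon enzymes too, had too few UMIs for the minimum. Their ratios were 9.44 (3.64 to 31.1) and 3.05 (1.68 to 5.70).

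Genes of mitosis had the largest ratios. Of 28 listed regulators 22 passed the minimum and 21 were higher, with a median log2 ratio of 4.58. Ccna2 (cyclin A2) had 268 CPM, against 2.69 CPM (99.7-fold, 50.2 to 232). Plk1, the polo-like kinase, had 120 CPM (235 UMIs), against 1.01 CPM (3 UMIs), and Aurkb, the kinase of the chromosomal passenger complex, was 28.2-fold higher (16.5 to 52.3). The one regulator that did not pass was Pttg1 (securin), with 60 UMIs, against 102, a log2 ratio of -0.16. Each of the 21 kinetochore and centromere genes past the minimum (25 listed) and each of the 27 spindle and cytokinesis genes (39 listed) was higher, with median log2 ratios of 4.62 and 4.75. Cenpa, the centromeric histone H3, was 18.9-fold higher (13.7 to 26.8). Nusap1 (101-fold, 50.9 to 235) and Tpx2 (89.8-fold, 38.1 to 279) encode spindle proteins. Tuba1b, an alpha tubulin, had 1669 UMIs, against 92 (27.6-fold, 22.4 to 34.5), and Stmn1, which takes tubulin out of microtubules, was 32.7-fold higher (24.97 to 43.7).

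Chromatin genes followed, with 28 of the 29 chromosome structure genes higher and a median log2 ratio of 2.89. Hmgb2 had 1790 CPM, against 55.1 CPM (32.5-fold, 27.8 to 38.2), and H2afz, a histone H2A variant, was 7.54-fold higher (7.04 to 8.09). Smc2, a condensin subunit, was 35.2-fold higher (21.4 to 62.3); the condensin II subunit Ncapg2, at a log2 ratio of 0.82, was the member that did not pass. Of 16 replication-dependent histone genes 8 passed the minimum and 7 were higher, among them Hist1h2ap with 728 UMIs, against 14. Most such histone transcripts lack a poly(A) tail, so a poly(A)-primed library sees only part of them. Among G1 regulators 4 of 8 genes past the minimum (21 listed) were higher: Ccne1 and Ccne2, the E cyclins, with log2 ratios of 2.33 and 2.93, and Cdk2 and Cdk4 with 1.28 and 1.12. Ccnd2, the cyclin D with the most UMIs, had 375 CPM, against 220 CPM (log2 ratio 0.77). E2f8, a repressor of E2F targets, had 40 UMIs in dividing cells and 0 in 0-UMI cells. Among 16 cell cycle inhibitors, Cdkn2a (37.9 against 14.1 CPM) and Cdkn2d (65.5 against 20.8 CPM) passed as higher, while Cdkn2c (p18, which holds plasma cells out of the cycle) had 87.5 CPM, against 63.2 CPM.

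**Figure D3:**
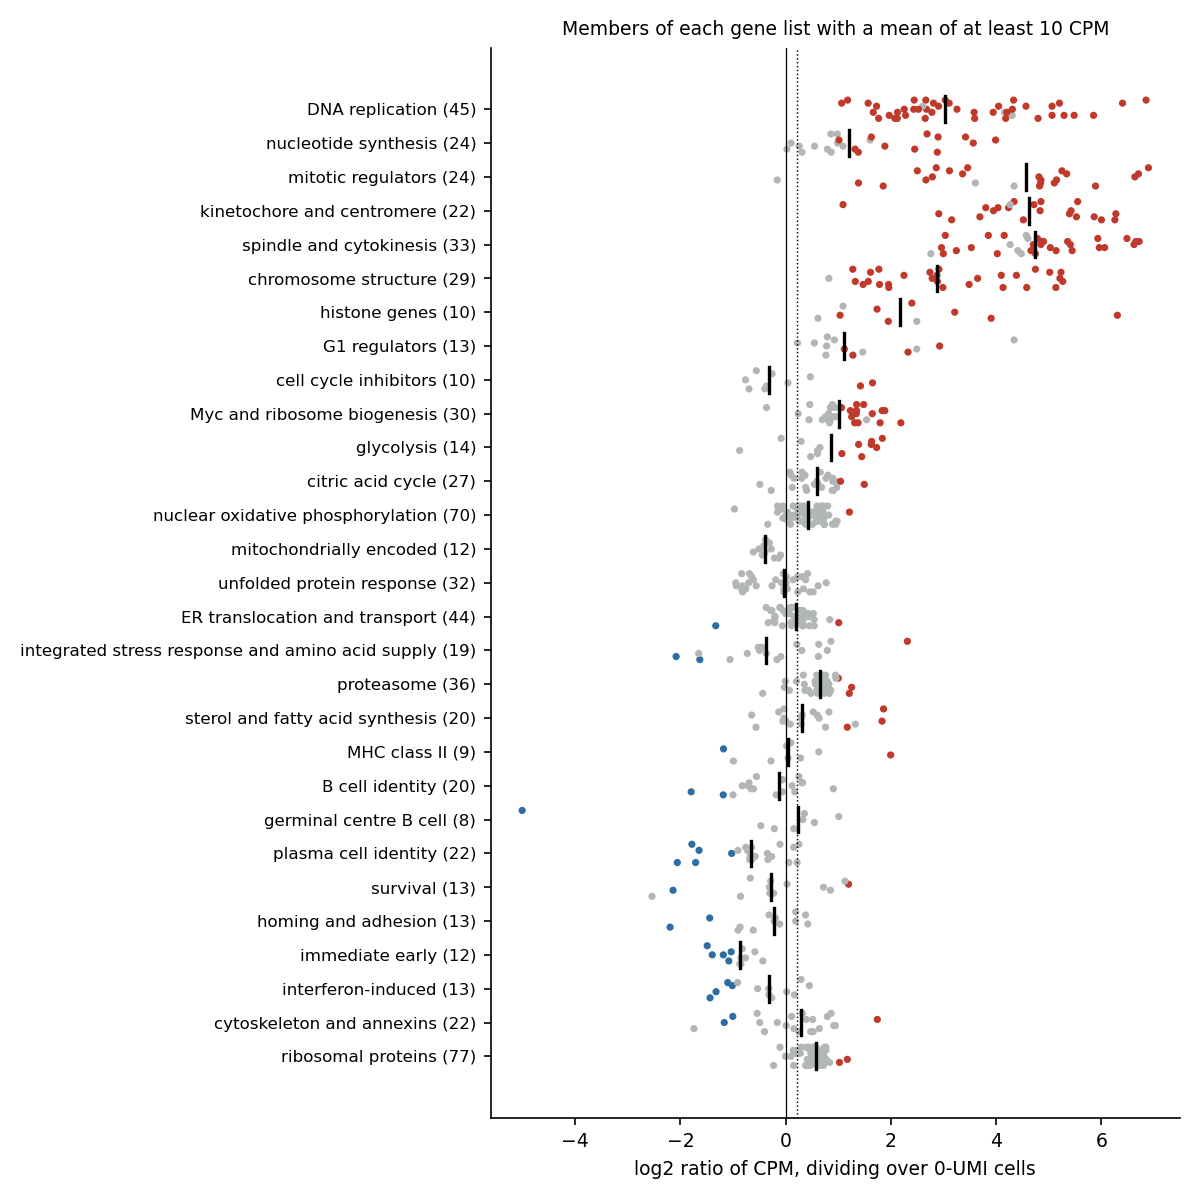
Log2 CPM ratio of dividing over 0-UMI cells in the B220+2NBDG- spleen library for each listed gene with a mean of at least 10 CPM, by list; short bars are list medians, the dotted line is the median of all such genes (0.21), and red and blue points passed the 2-fold rule as higher and lower. The median of mitotic regulators is 4.58, that of DNA replication 3.04 and that of plasma cell identity -0.66 (0.04 scaled to all UMIs); sums under 3 UMIs were raised to 3.

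Most dividing cells held replication and mitotic transcripts at once. Per cell, the DNA replication and nucleotide synthesis lists summed to a median of 6369 CPM, against 1859 CPM, and the lists of mitotic regulators, kinetochore and spindle, which leave out the rule genes, to 11422 CPM, against 798 CPM. Set against the 95th percentile of 0-UMI cells in each sum, 156 of the 177 dividing cells were above both, 18 above the mitotic one only, 0 above the replication one only and 3 above neither. In 0-UMI cells these numbers were 2, 34, 34 and 650 of 720. Most of the rule genes act in or around mitosis, which bears on these numbers, and no phase was assigned to a cell. Cells with 5 to 19 rule-gene UMIs were above both in 34 of 49 cases, and cells with 20 or more in 122 of 128.

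**Figure D4:**
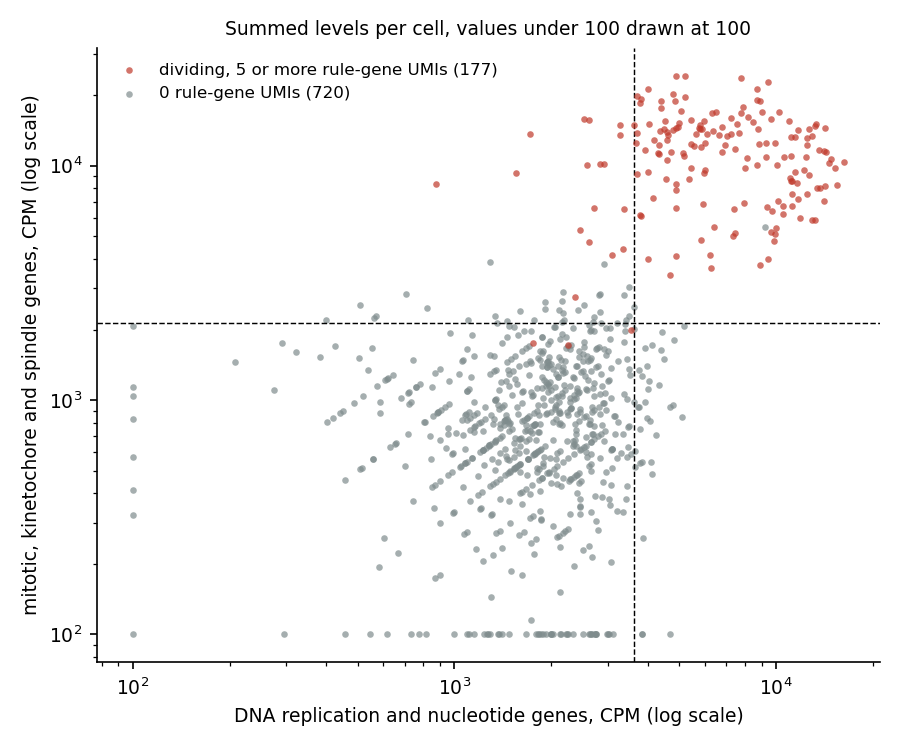
Summed CPM of the mitotic regulator, kinetochore and spindle lists (vertical) against that of the DNA replication and nucleotide synthesis lists (horizontal) in each dividing (red) and each 0-UMI cell (grey) of the B220+2NBDG- spleen library, both on log axes with sums under 100 drawn at 100, and with the 95th percentiles of 0-UMI cells as lines. 156 of 177 dividing cells lie above both lines.

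Genes of growth and glucose breakdown were higher, by smaller ratios. Of 34 Myc targets and ribosome biogenesis genes 28 passed the minimum and 14 were higher, with a median log2 ratio of 1.01. Myc itself had 27.6 CPM (54 UMIs), against 6.05 CPM (18 UMIs), a 4.57-fold ratio (2.64 to 8.28), and Npm1, a nucleolar chaperone of ribosome assembly, had 680 CPM, against 289 CPM. In glycolysis 7 of 11 genes past the minimum (22 listed) were higher. Gapdh had 1176 CPM, against 354 CPM, Eno1 (enolase) 457 CPM, against 128 CPM, and Ldha (lactate dehydrogenase) 433 CPM, against 140 CPM. In the first steps, the transporter Slc2a1 had 29 UMIs, against 36 (ratio 1.23, 0.726 to 2.06). Hexokinase Hk2 had 42 UMIs, against 46 (ratio 1.39, 0.893 to 2.16). Both were under the minimum, and their intervals run from below 1 to above 2, so neither a rise nor its absence was shown. All cells of this library had been gated as low in 2NBDG uptake. The citric acid cycle had 2 of 23 genes higher, Dld and Idh3a, and nuclear oxidative phosphorylation 1 of 70, Cycs (cytochrome c, log2 ratio 1.21). The 12 measured mitochondrially encoded genes all had log2 ratios below 0 with this scaling (median -0.38, but 0.31 scaled to all UMIs), and none passed; mt-Co1 had a log2 ratio of -0.61. Of the 36 proteasome genes the ATPase subunits Psmc1, Psmc5 and Psmc6 were higher, and of 77 ribosomal protein genes Rpl5 and Rps2 were, with list medians of 0.66 and 0.58.

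Genes of the secretory pathway differed little beside immunoglobulin. None of the 31 unfolded protein response genes past the minimum passed in either direction (median -0.04, and 0.66 scaled to all UMIs): Hspa5, the main chaperone of the endoplasmic reticulum, had 3810 CPM, against 3922 CPM. In translocation and vesicle transport 1 of 44 genes was higher, Kdelr2, a retrieval receptor, and 1 was lower, Ssr4, a translocon-associated subunit with 1519 CPM, against 3811 CPM. Among stress response and amino acid supply genes the serine synthesis enzyme Psat1 was higher at 112 CPM, against 22.5 CPM. Slc3a2, the heavy chain of amino acid transporters, was lower at 279 CPM, against 1182 CPM, as was the transcription factor Ddit3 with 21 UMIs, against 99.

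As a class, the dividing cells held transcripts of the identity genes of plasma cells, several of them at lower levels. Jchain, the joining chain of IgM and IgA, which was not counted as an immunoglobulin gene in the scaling, had 33166 CPM, against 138155 CPM, 4.17-fold lower (4.13 to 4.20). Its median per cell was 30767 CPM, against 129879 CPM. Xbp1, the transcription factor of secretion, had 2553 CPM, against 4063 CPM (1.59-fold lower, 1.54 to 1.65), Sdc1 275 CPM, against 455 CPM (1.65-fold lower, 1.495 to 1.83), and Prdm1 (Blimp-1) 28.7 CPM, against 44.7 CPM (1.56-fold lower, 1.13 to 2.17); these did not reach the 2-fold rule. Scaled to all UMIs, immunoglobulin included, the log2 ratios of Xbp1, Prdm1 and Sdc1 were 0.03, 0.06 and -0.03, so they were lower only relative to the other non-immunoglobulin transcripts, while Jchain was lower under this scaling too (-1.36). Irf4 had 108 CPM, against 97.4 CPM (ratio 1.11, 0.928 to 1.33). Of the 22 genes in the list (median log2 ratio -0.66, and 0.04 scaled to all UMIs) 0 passed as higher and 5 as lower: Jchain, Tnfrsf17 (BCMA, a survival receptor; 81.4 against 280 CPM), Ly6c2, Cd93 and the co-receptor Cd28. Of the B cell list, 0 of 18 genes past the minimum were higher, and Cd79a, a signalling chain of the B cell receptor, was lower at 427 CPM, against 1481 CPM, as was Cd38. Ptprc, whose product carries B220, had 161 UMIs, against 255 (ratio 0.961); the counts do not separate its isoforms. Cd74, the invariant chain of MHC class II, had 8413 CPM, against 16731 CPM (log2 ratio -0.99), H2-DMb2 was higher and H2-Ob lower, and the median of the class II list was 0.05 (0.74 scaled to all UMIs and -0.11 with TMM factors). Jchain was seen in 177 of the 177 dividing cells, Xbp1 in 175, Sdc1 in 140, Irf4 in 80, Tnfrsf17 in 55 and Prdm1 in 49. The germinal centre list summed to 353 CPM, against 363 CPM; of its 15 genes 6 passed the minimum, 0 were higher and 1, Il4i1, was lower. Most of these UMIs were of Irf4, Basp1, Nuggc and Fas, while Bcl6 had 0 UMIs in both classes, S1pr2 7 UMIs, against 12, and Rgs13 45 UMIs, against 34. The B cell factor Pax5 had 1 UMI, against 0.

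Immediate early genes were lower as a group. Of 18 listed genes 11 passed the minimum and 5 were lower, Fos, Junb, Ier5, Dusp1 and Zfp36, with a list median of -0.86 (-0.17 scaled to all UMIs); Fos, a subunit of AP-1, had 171 CPM, against 451 CPM. Interferon-induced genes had 4 of 12 lower, among them Ifitm3, Irf9 and Ifi27l2a, and 0 higher, with a list median of -0.32 that turned to 0.27 scaled to all UMIs. Of 17 survival genes 9 passed the minimum, 1 was higher and 1 lower. The list median was -0.28, with 5 members above 0 and 8 below. The lower gene was Bcl2, which blocks apoptosis (12.3 CPM, against 54.1 CPM). Bak1, which carries apoptosis out, was the higher (64.0 CPM, against 27.9 CPM). Bcl2l11, which promotes apoptosis, did not pass at 78.3 CPM, against 125 CPM. In homing, the transcription factor Klf2 had 74.2 CPM, against 202 CPM, and the integrin chain Itgb7 22.0 CPM, against 101 CPM. Actg1, a cytoplasmic actin, was higher at 484 CPM, against 144 CPM.

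Outside the division lists, the genes with the highest ratios were Knstrn, Fbxo5, Kifc1, Neil3, Shcbp1, Gm10282, Fignl1, Trip13, Traip, Mxd3, Rad54l, Aunip, Diaph3, Depdc1a and Ndc1. Several of these are themselves known in division or DNA repair: Knstrn encodes a kinetochore and spindle protein, Fbxo5 an inhibitor of the anaphase-promoting complex, Kifc1 a mitotic kinesin and Neil3 a DNA glycosylase. Shcbp1 had 181 UMIs, against 6 (45.9-fold, 20.7 to 127). At the other end stood Smpdl3a (5 UMIs, against 94), Tcp11l2 (26, against 339; 8.56-fold lower, 5.74 to 13.3), Gpx3, a secreted glutathione peroxidase (35, against 339), and Apoe, an apolipoprotein with 169 CPM, against 1021 CPM (6.03-fold lower, 5.38 to 6.77). Prg2, known as an eosinophil granule protein and also expressed by plasma cells, had 138 CPM, against 802 CPM (5.81-fold lower, 5.12 to 6.61). The lowest ratio of all belonged to Il4i1, an amino acid oxidase with 3 UMIs, against 147, but 129 of the 147 (87.8%) came from 1 IgM cell, and without that cell it had 6.06 CPM in 0-UMI cells. For Apoe the highest cell gave 11.9% of the UMIs in 0-UMI cells, and for the non-coding gene E330020D12Rik 20.6%. E330020D12Rik had 28 UMIs, against 252, and went the other way in IgG cells alone (log2 ratio 1.02).

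The lists of other cell types were measured in the same cells. Of the 177 dividing cells 2 held at least 3 UMIs of T cell receptor and CD3 genes and were T cell-like, with 39 and 62 UMIs of those receptor and CD3 genes, 16 and 6 rule-gene UMIs and immunoglobulin shares of 0.343% and 0.385%; 7 of 720 0-UMI cells were T cell-like. The T cell list of 16 genes summed to 114 CPM in dividing cells, against 69.2 CPM, with 760 CPM in cells with 5 to 19 rule-gene UMIs and 5.38 CPM in those with 20 or more, and 51 UMIs of Trbc2 came from 2 dividing cells. The lists for neutrophils and for mast cells and basophils had 0 UMIs in dividing cells. The plasmacytoid dendritic cell list summed to 363 CPM, against 511 CPM, nearly all of it Bst2 (442 UMIs, against 973) and Tcf4 (250, against 483), with its defining gene Siglech at 0 UMIs in both classes. The progenitor list summed to 53.7 CPM, against 109 CPM, nearly all of it Vpreb3 (102 UMIs, against 309), with Cd34 at 0 in both classes. The natural killer cell list had 22 UMIs, against 54, 12 of the 22 from Eomes and 6 from Nkg7, with Ncr1 at 0 in both classes. In the macrophage list, 46 UMIs, against 114, were nearly all Cd68 (24, against 100) and C1qb (20, against 11). Without the T cell-like cells 612 genes were higher and 212 lower. Scrublet called 4 of the 177 cells doublets (2.26%), against 0 of 720, and 616 and 220 genes were called without them.

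By heavy chain, dividing cells were IgM in 49.7% of cases (88 of 177, 95% interval 42.1 to 57.3%), against 59.6% (429 of 720, 55.9 to 63.2%) in 0-UMI cells. IgG cells made up 43.5% (77 of 177, 36.1 to 51.1%), against 32.1% (231 of 720, 28.7 to 35.6%), and IgA cells 4.52% (8 of 177, 1.97 to 8.71%), against 7.5% (54 of 720). The counting intervals of the IgG share did not overlap, and those of the IgM and IgA shares did. Of all IgM cells in the library 12.4% were dividing, of IgG cells 18.2% and of IgA cells 10.4%; among subclasses the share was 23.6% for IgG3, 18.0% for IgG2b and 17.0% for IgG2c, with between 13 and 43 dividing cells in each. A kappa variable gene could be called in 44 of the 177 dividing cells, in which 25 different genes were seen. The most frequent was Igkv3-4 in 9 of the 44 (20.5%, 9.80 to 35.3%), against 96 of 414 (23.2%, 19.2 to 27.6%) in 0-UMI cells. Within IgM cells 374 genes were higher and 237 lower in dividing cells, and within IgG cells 427 and 140.

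The same rule was then applied in libraries that had not chosen these cells. Those with at least 10 cells in each class were B220-2NBDG- (19 dividing, 1131 0-UMI cells) and B220+2NBDG+ (13 dividing, 878 0-UMI cells). UMIs were summed per library and class and tested with edgeR's quasi-likelihood test with the library as a block, which leaves 1 residual degree of freedom, with spread shared across genes. The labels do not tell whether each library had its own animals. The p-values rest mainly on a spread between these libraries that is shared across genes, and little on each gene's own. That spread may be technical. Their dividing cells were picked by the same 10 genes, which were left out of the test. Of 8164 genes, 355 were higher (4.35%) and 375 lower (4.59%) at a Benjamini-Hochberg adjusted p below 0.05, and 1595 had an unadjusted p below 0.05. DESeq2 on the same sums called 159 and 72, and edgeR against depth-matched 0-UMI cells, with fewer genes tested (1767), 155 and 171. Of the 619 genes higher in the B220+2NBDG- library, 584 were tested here and 239 were called higher (40.9% of those tested, 67.3% of the 355) and 0 lower. Of the 216 lower ones, each was tested and 128 were called lower (59.3%, 34.1% of the 375); Anxa2 was called higher.

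Division genes were higher in those libraries too, where cells had been picked by 10 genes of the same process. The p-values of division genes are therefore no independent support. By the edgeR test 24 of 40 DNA replication genes, 17 of 18 kinetochore genes and 21 of 23 spindle genes were higher, and 0 lower. Pclaf rose by 7.95 ± 0.32 on the log2 scale (standard error, edgeR adjusted p = 4.39e-131), Plk1 by 6.78 (edgeR adjusted p = 1.83e-15) and Tyms by 3.25 (edgeR adjusted p = 3.04e-15). Jchain fell by 2.27 ± 0.26 (edgeR adjusted p = 1.72e-15), Cd79a fell by 2.05 (edgeR adjusted p = 6.96e-18), Apoe fell by 4.43 (edgeR adjusted p = 2.58e-22) and Prg2 fell by 3.44 (edgeR adjusted p = 1.11e-40). Of the plasma cell identity list 10 of 22 genes fell and 0 rose, among them Xbp1 at -0.99 ± 0.20 (edgeR adjusted p = 2.89e-05) and Sdc1 at -1.11 ± 0.23 (edgeR adjusted p = 6.98e-05). By CPM ratio, 10 of the 22 lay above 0 on the log2 scale and 12 below in B220-2NBDG-, and 7 and 15 in B220+2NBDG+. The sums left out immunoglobulin. Scaling to all UMIs, under which Xbp1 and Sdc1 were hardly lower in B220+2NBDG-, was not tested in these libraries. Irf4, at -0.72, did not pass (edgeR adjusted p = 0.220). Tnfrsf17 passed at -0.72 (edgeR adjusted p = 0.0460), but its levels went opposite ways: 490 CPM in dividing cells, against 406 CPM, in B220-2NBDG-, and 66.9 CPM, against 236 CPM, in B220+2NBDG+.

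**Figure D5:**
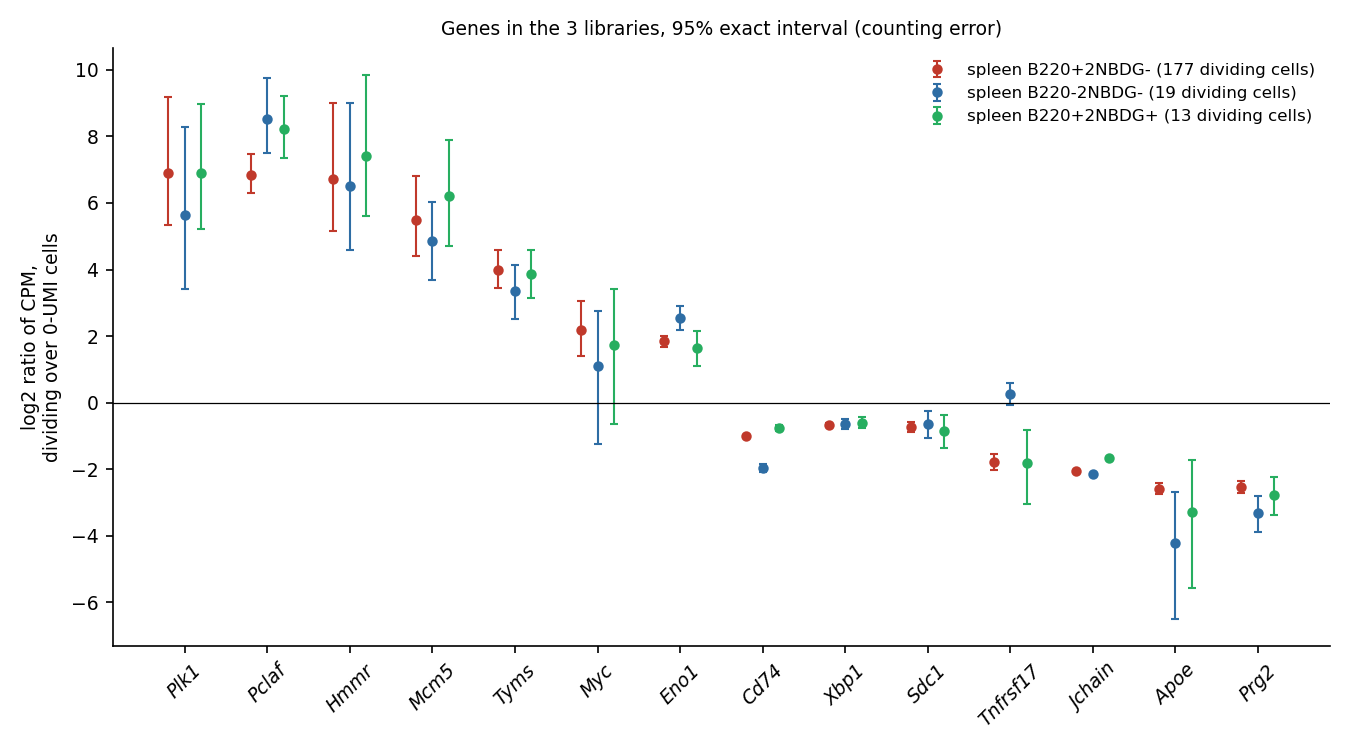
Log2 ratio of CPM, dividing over 0-UMI cells, for 14 genes in the 3 spleen libraries with at least 10 dividing cells; bars are exact 95% intervals for counting error, and sums under 3 UMIs were raised to 3. Pclaf lies above 0 and Jchain below 0 in each library, and Tnfrsf17 lies on different sides.

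Growth genes were less uniform in these libraries. Gapdh (1.20, edgeR adjusted p = 6.50e-07), Eno1 (1.78, edgeR adjusted p = 7.01e-11) and Ldha (1.15, edgeR adjusted p = 0.000298) rose, while Myc, Npm1 and Psat1 had log2 fold changes of 0.44, 0.35 and 0.35 that did not pass (edgeR adjusted p = 0.882, 0.408 and 0.804). Of immediate early genes 8 of 12 fell, with Fos at -1.23 (edgeR adjusted p = 1.65e-05). Of B cell genes 10 of 21 fell and 1 rose. Il4i1, at -2.02, did not pass (edgeR adjusted p = 0.469). Whether the B220+2NBDG- library changed differently was tested by the interaction of class and library over the 3 libraries, which called 8 of 8327 genes (0.0961%) by edgeR. DESeq2 called 0, with 24 genes at an unadjusted p below 0.05 there and 291 in edgeR. None of the division list genes was among the 8.

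In the 2 other libraries the share of IgG cells was also larger in dividing cells, with counting intervals that overlapped: 21.1% (4 of 19, 6.05 to 45.6%), against 4.95% (56 of 1131), in B220-2NBDG- and 69.2% (9 of 13, 38.6 to 90.9%), against 48.9% (429 of 878), in B220+2NBDG+. IgM made up 47.4% of dividing cells, against 85.8%, in B220-2NBDG-, and 23.1%, against 39.4%, in B220+2NBDG+. IgA did not keep 1 direction, with 26.3%, against 9.02%, in B220-2NBDG- and 0 of 13 cells, against 9.57%, in B220+2NBDG+. Immunoglobulin took 28.9% of UMIs in dividing cells of B220-2NBDG-, against 64.1%, and 45.1% in B220+2NBDG+, against 64.9%.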

How the data were processed

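The deposited values are raw UMI counts per gene and cell barcode. The authors made them with Cell Ranger 2.1 on GRCm38, per the submitters' processing notes, and per the labels' protocols libraries were 10x 3′ version 2. How barcodes and the annotation were chosen is not stated in the labels. All 5476 barcodes passed at least 500 UMIs, at least 200 genes and under 10% mitochondrial UMIs. Names, coordinates and 266 immunoglobulin genes came from GENCODE M21 (32739 of 33456 identifiers matched).

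The cells and gene lists were chosen with earlier results of these data known. UMIs were summed per class and given as CPM of non-immunoglobulin UMIs; for ratios, sums under 3 were raised to 3. Intervals are exact (conditional binomial for ratios, Clopper-Pearson for shares) and cover counting error only. An isotype needed at least 10 heavy-chain constant UMIs, 70% from 1 gene. Doublets were called by Scrublet in scanpy 1.11.5 and kept. Tests used edgeR 4.0.16 (TMM, filterByExpr) and DESeq2 1.42.0 in R 4.3.3, and were tested on simulated data; adjusted p-values are Benjamini-Hochberg values of edgeR unless named otherwise. The text names the rule genes, the 12 highest and 12 lowest ratios, the 15 highest outside the division lists, members of lists (at most 6 per list), a fixed set, and genes past the interaction test; other genes were chosen after their values were seen. Alternatives changed the scaling, thresholds, depth, isotype and cells.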

Additional observations from a re-analysis of the deposited data

Results flagged for a closer look

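In 8 genes the difference between dividing and 0-UMI cells in the B220+2NBDG- spleen library was not that in the 2 other spleen libraries, by the edgeR interaction test; values are differences in log2 fold change, B220+2NBDG- minus the others. DESeq2 called none of the 8.

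The change was lower in the B220+2NBDG- library for 5 genes. For S100a6 the difference was -7.74. It had 1 UMI in dividing cells, against 49, in B220+2NBDG-, 12 UMIs (10 of them in 1 cell), against 30, in B220-2NBDG- and 0, against 7, in B220+2NBDG+; per class total this was 0.512 CPM, against 16.5 CPM, in B220+2NBDG- and 71.6 CPM, against 7.16 CPM, in B220-2NBDG-. For Anxa2 it was -2.48, with 58.3 CPM, against 117 CPM, in B220+2NBDG-, 239 CPM (40 UMIs, 32 of them in IgA cells), against 60.9 CPM, in B220-2NBDG- and 16.7 CPM (2 UMIs), against 20.6 CPM, in B220+2NBDG+. For Itgb7 it was -2.26, with 22.0 CPM, against 101 CPM, in B220+2NBDG-, 155 CPM (26 UMIs, 16 in IgA cells), against 78.5 CPM, in B220-2NBDG- and 0, against 64.7 CPM, in B220+2NBDG+. For Bcl2l11, which encodes the death promoter BIM, it was -2.45, with 78.3 CPM, against 125 CPM, in B220+2NBDG-, 275 CPM (46 UMIs, 24 in 1 cell), against 27.2 CPM, in B220-2NBDG- and 0, against 57.3 CPM, in B220+2NBDG+. For Ifi27l2a it was -1.79, with 179 CPM, against 383 CPM, in B220+2NBDG-, 675 CPM, against 354 CPM, in B220-2NBDG- and 351 CPM, against 225 CPM, in B220+2NBDG+. Among 0-UMI cells of B220+2NBDG-, IgA cells held 44 of the 49 S100a6, 293 of the 348 Anxa2 and 179 of the 300 Itgb7 UMIs. Among its dividing cells, IgA cells held 57 of the 114 Anxa2 UMIs. Outside IgA cells, Anxa2 was not lower in that library, at 30.6 CPM in dividing cells, against 20.1 CPM. Itgb7 stayed lower there (28 UMIs, against 121), and S100a6 had 1 UMI, against 5.

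The change was higher in the B220+2NBDG- library for 3 genes. For Ly6d the difference was 1.75, with 890 CPM, against 718 CPM, in B220+2NBDG-, 603 CPM, against 2198 CPM, in B220-2NBDG- and 452 CPM, against 720 CPM, in B220+2NBDG+. For Serpina3g it was 2.94, with 89.5 CPM (175 UMIs, 73 in 1 cell), against 101 CPM, in B220+2NBDG-, 17.9 CPM (3 UMIs), against 169 CPM, in B220-2NBDG- and 16.7 CPM (2 UMIs), against 99.0 CPM, in B220+2NBDG+. For Ptpn6, the phosphatase SHP-1, it was 2.87, with 63.4 CPM, against 84.7 CPM, in B220+2NBDG-, 11.9 CPM (2 UMIs), against 169 CPM, in B220-2NBDG- and 16.7 CPM (2 UMIs), against 70.1 CPM, in B220+2NBDG+. Apart from Ly6d and Ifi27l2a, none of these genes had more than 46 UMIs in the dividing cells of either other library; the part of single cells and of IgA cells in the differences was not tested.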

How the results depend on the processing

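No paired analysis was possible because the labels give 1 sample per group and no replicate numbers; the block of the edgeR test is the library, within which both classes of cells were measured. Leaving out a library was not run, since no residual degree of freedom would remain. Of the values that answer a comparison, 417 stayed within the range set for their kind (for counts, within 1.5 times) under the alternatives and 40 moved. For list medians that range covers the spread over a list's genes. They were compared relative to the median of all genes tested, so a shift of all genes by scaling did not count. Plasma cell identity lay at -0.92 relative to that median in both scalings, but its own median was -0.66 and, scaled to all UMIs, 0.04. Of single named genes 569 stayed, 79 moved and 2 reversed, both in IgG cells: Il4i1 at 0.21 and E330020D12Rik at 1.02. The causes were not tested.

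Numbers of genes higher moved to 1776 scaled to all UMIs, 374 in IgM cells, 956 at 10 CPM and 20 UMIs, 1509 with no minimum and 105 in cells with 5 to 19 rule-gene UMIs (chosen after the data were seen). Numbers lower moved to 25 scaled to all UMIs, 355 without Jchain, 124 against depth-matched 0-UMI cells, 140 in IgG cells, 407 at 10 CPM and 20 UMIs and 833 with no minimum. Across the other libraries, calls higher and lower were 159 and 72 by DESeq2, 918 and 1152 with the B220+2NBDG- library and 155 and 171 against depth-matched cells; interaction calls were 0 by DESeq2. The share of dividing cells was 17.2% at 3 or more rule-gene UMIs and 12.1% after thinning.

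List medians (log2 ratio relative to the median of all genes tested) moved as follows. Against depth-matched cells they were 3.63 for spindle, -0.44 for mitochondrially encoded, -0.19 for endoplasmic reticulum transport, -0.99 for immediate early and 0.067 for ribosomal protein genes. In IgM cells they were 0.58 for nucleotide synthesis, 3.93 for spindle, 0.068 for transport and 0.51 for sterol genes. In IgG cells they were 3.65 for kinetochore, 3.70 for spindle, 1.15 for Myc and ribosome biogenesis, -0.29 for transport, 0.27 for proteasome and 0.48 for ribosomal protein genes. In cells with 5 to 19 rule-gene UMIs they were 2.14 for DNA replication, 2.23 for mitotic regulators, 4.04 for spindle, -0.43 for mitochondrially encoded and -0.80 for immediate early genes.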
